A study of Mus musculus with 4 samples.

Results

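Cells of mouse testis were picked out by the transcripts of 3 genes known from germ cells about to enter meiosis: Stra8, Rhox13 and Crabp1. Whether the cells are at that stage is not settled by these genes, since cells rich in spermatid RNA met the condition about as often as the whole library in A0 and A10. In BA10, cells rich in RNA of Leydig cells met it at 7.69%, beside 2.62% of the whole library. A cell was a member when at least 2 of the 3 genes had a value above 0 in its column, and at most the 100 members with the highest mean value were to be kept in each library. Fewer cells than that met the condition everywhere, so every eligible cell was kept: 49 of 8941 cells in A0, 39 of 9682 in A10 and 99 of 3778 in BA10, or 187 of the 22401 cells of these libraries and of the 27060 cells of the whole series. The members were selected on these 3 genes, so their values for them are a description and not a finding.

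The testis tubular cells came from male mice of the outbred ICR stock and were measured with 10x Genomics 3' single-cell RNA sequencing, which tags captured transcripts with a molecular barcode (UMI) so that molecules and not reads are counted. A0 was the vehicle control without busulfan. A10 received alginate oligosaccharides (AOS) at 10 mg/kg body weight, also without busulfan. BA10 received a single injection of busulfan, an alkylating drug that kills germ cells, at 40 mg/kg when 3 weeks old, followed by AOS at 10 mg/kg. B0, busulfan without AOS, was the fourth library and lies outside the selection. Each group was 1 library made from 6 pooled mice, so there is no replicate and no test between groups, and animals cannot be told apart. The duration of AOS dosing is given inconsistently in the sources, as 2 and as 5 weeks. All 4 libraries together ranged from 25323535 to 150812974 UMIs. The lowest UMI number of a cell was 7687 in A0, 6716 in A10 and 9013 in BA10. Library pairs shared 31 to 135 cell barcodes; 1, 1 and 4 members (A0, A10, BA10) had a barcode that also occurs in another of the 3 libraries, and 0 of them were a member there.

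Male germ cells begin meiosis when differentiating spermatogonia answer to retinoic acid, copy their DNA a last time before the meiotic divisions and become preleptotene spermatocytes. Stra8, induced by retinoic acid, encodes a regulator required for this step. Crabp1 encodes a cytoplasmic protein that binds retinoic acid, and Rhox13 is an X-linked homeobox gene of germ cells. The testis around these rare cells is dominated by later stages: pachytene spermatocytes, which express genes such as Ldhc, and spermatids, which pack their DNA with transition proteins and protamines.

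The proximal promoters of the 3 selecting genes are shown because they define the cells. They are RefSeq sequences on GRCm38.p6, from 250 bases before to 50 bases after the start site, on the plus strand: Stra8 at chr6:34920698-34920997, Rhox13 at chrX:38120590-38120889 and Crabp1 at chr9:54764498-54764797. The GENCODE genes start at 34920163 for Stra8, 38121219 for Rhox13 and 54764748 for Crabp1. By these, the Stra8 window lies inside the gene and the Rhox13 window ends before the gene, so the motif counts depend on the start site used. Capitals mark AGGTCA, the half-site of retinoic acid receptors, searched on both strands.
Stra8: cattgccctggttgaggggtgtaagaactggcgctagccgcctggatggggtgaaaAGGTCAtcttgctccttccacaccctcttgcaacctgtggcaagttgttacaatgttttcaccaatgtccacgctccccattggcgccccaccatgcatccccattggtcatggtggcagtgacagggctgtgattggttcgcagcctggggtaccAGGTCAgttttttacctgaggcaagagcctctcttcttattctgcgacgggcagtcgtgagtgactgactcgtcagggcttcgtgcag
Rhox13: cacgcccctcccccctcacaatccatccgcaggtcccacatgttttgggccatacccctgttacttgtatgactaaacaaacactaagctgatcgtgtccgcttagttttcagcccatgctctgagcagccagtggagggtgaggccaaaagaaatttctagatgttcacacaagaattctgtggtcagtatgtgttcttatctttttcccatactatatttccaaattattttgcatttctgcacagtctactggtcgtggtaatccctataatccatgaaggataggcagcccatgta
Crabp1: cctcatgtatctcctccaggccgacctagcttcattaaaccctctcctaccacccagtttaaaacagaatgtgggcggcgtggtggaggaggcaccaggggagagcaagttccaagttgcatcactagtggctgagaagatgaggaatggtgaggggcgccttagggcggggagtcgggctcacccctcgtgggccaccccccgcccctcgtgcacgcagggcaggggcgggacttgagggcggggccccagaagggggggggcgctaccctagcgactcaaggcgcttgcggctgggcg
The Stra8 window held 2 such matches and the other two held 0, whereas 16.3% of 32851 promoters of the same length held at least 1. Matches to CNCCTCAG, a motif of STRA8 and its partner MEIOSIN found in 7.94% of promoters, and to TTTGGCGC, an E2F motif found in 0.514%, numbered 0 in all 3 windows on both strands. The windows also differed in base composition, with a G and C content of 55.7% in Stra8, 45.3% in Rhox13 and 65.0% in Crabp1. A match is a run of letters only, and no binding was measured.

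Within the members, Stra8 was the gene most often seen, with a UMI in 44 of 49 cells in A0, 32 of 39 in A10 and 84 of 99 in BA10. Rhox13 was seen in 35, 30 and 72 members and Crabp1 in 31, 17 and 70. Levels are given as CPM, the UMIs of a gene summed over the cells and scaled to a total of 1000000. Stra8 (chromosome 6, 34920163 to 34939344, mm10) stood at 149, 160 and 99.1 CPM in the members of A0, A10 and BA10 and at 0.513, 0.873 and 2.31 CPM in the other cells. Rhox13 (chromosome X, 38121219 to 38129967) stood at 63.3, 77.0 and 51.6 CPM and Crabp1 (chromosome 9, 54764748 to 54773110) at 76.3, 52.0 and 70.9 CPM. All 3 genes were detected together in 12 A0 members, 1 A10 member and 28 BA10 members.

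The selecting counts were small. The median member held 4 UMIs of the 3 genes together in A0, 3 in A10 and 4 in BA10, with ranges of 2 to 12, 2 to 9 and 2 to 28, and 11, 13 and 27 members rested on exactly 2 UMIs. On the table's scale, a natural log of the scaled UMI share with 1 added before the log, the lowest member had a mean of 0.217 in A0, 0.185 in A10 and 0.0678 in BA10. Just outside, cells with only 1 of the genes reached 0.662, 0.828 and 0.601, and 56, 127 and 332 of them had a higher mean than the lowest member. Members were about as deep as the rest in A0 (median 13270 against 12679 UMIs) and A10 (11171 against 10948) and shallower in BA10 (15081 against 18152). They nevertheless showed more genes per cell in every library, with medians of 4058 against 3356, 3598 against 3072 and 4249 against 4099.

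The first question was how frequent the members were in each group. They made up 0.548% of A0 (95% exact binomial interval 0.406 to 0.724), 0.403% of A10 (0.287 to 0.550) and 2.62% of BA10 (2.13 to 3.18). The interval of BA10 lay above both others, and those of A0 and A10 overlapped. The shares rest on which cells the table holds, and how these were chosen is not fully known: the study's methods set 5000 cells by the force-cells option and a minimum of 200 genes per cell, whereas A0 and A10 hold 8941 and 9682 cells and the lowest gene number of a cell was 1192 in A0, 1131 in A10 and 1773 in BA10. Detection depends on depth, so each cell was also thinned to 5000 UMIs, which left out 0 cells: 23 members remained in A0 (0.257%, 0.163 to 0.386), 8 in A10 (0.0826%, 0.0357 to 0.163) and 29 in BA10 (0.768%, 0.515 to 1.10). In this random draw the intervals of A0 and A10 no longer overlapped, the lower bound of A0 being 0.1631% and the upper bound of A10 0.1627%. These intervals cover counting error only, not animals or cell capture. As a background for detection, cells with at least 10% of their UMIs in 10 spermatid genes, which should lack Stra8, were members at 0.580% in A0 (11 of 1895, median 10914 UMIs) and 0.471% in A10 (11 of 2337, median 9615 UMIs), beside 0.548% and 0.403% of the whole libraries. In BA10, 1 of 18 such cells was a member. Cells with at least 1% of their UMIs in the pachytene list were members at 0.216% (14 of 6493), 0.190% (13 of 6842) and 1.71% (60 of 3499), below the share of each library. Such cells were nevertheless 14 of the 49 members of A0, 13 of 39 in A10 and 60 of 99 in BA10.

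Whether the members resembled each other in genes that had not selected them was asked with the 15 nearest cells of each member in 30 principal components of 2000 variable genes, without the 3 selecting genes. In A0, 34.7% of these neighbours were themselves members (31.3 to 38.3), in A10 26.8% (23.3 to 30.6) and in BA10 39.5% (37 to 42), beside member shares of 0.548%, 0.403% and 2.62%. Cells with at least 5 member neighbours numbered 28 of 49, 15 of 39 and 61 of 99. Cells with 0 member neighbours numbered 8, 8 and 23. Neighbours of 1 cell are not independent, so the intervals are too narrow. Under the thinned selection the shares were 16.8%, 4.17% and 23.7%. That selection left only 23, 8 and 29 members that could be neighbours, or 0.257%, 0.0826% and 0.768% of the cells.

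Gene by gene, members were set against the other cells of their library by the log2 ratio of CPM with 10 CPM added to both, over genes detected in at least 10% of the cells of either pool, and a gene was counted when it was at least 2-fold higher or lower. In A0, 769 of 9188 genes were higher (8.37%) and 99 lower (1.08%). In A10, 887 of 8880 were higher (9.99%) and 23 lower (0.259%). In BA10, 265 of 9627 were higher (2.75%) and 2 lower (0.0208%). Higher in all 3 libraries were 210 genes, which is 27.3% of the calls in A0, 23.7% in A10 and 79.2% in BA10, while 0 genes were lower in all 3. Of 6518 genes that passed the filter in the other cells of all 3 libraries, 66 were higher in all 3. A gene that passes the 10% filter only through the members has to be higher in them, which applies to 1788 of the genes in A0, 1815 in A10 and 1387 in BA10. Among the genes that passed in the other cells, 288 of 7400, 323 of 7065 and 161 of 8240 were at least 2-fold higher. The 10 CPM compress low genes: with 1 CPM added, higher and lower calls together numbered 2269, 2211 and 1285, against 868, 910 and 267.

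Dazl was among the 210 shared genes and the 6 with the largest ratio in A0 and A10. Dazl, an RNA-binding protein that licenses germ cells for meiosis, stood at 271 CPM in members and 21.2 in other cells of A0, at 273 and 20.3 in A10 and at 143 and 24.9 in BA10. A Dazl UMI was found in 46 of 49, 33 of 39 and 87 of 99 members, but in 21.5%, 19.7% and 36.5% of the other cells. Per cell, Dazl ran from 0 to 1163 CPM with a median of 270.5 in A0, from 0 to 2309 with a median of 236 in A10, and from 0 to 1484 with a median of 158 in BA10, while the median of the other cells was 0 in each library. The members were thus mostly Dazl cells, with a minority at 0.

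Ptma, which encodes the small acidic chromatin protein prothymosin alpha of proliferating cells, had the largest log2 ratio with 10 CPM added in A0 and A10. Without the addition it stood at 663 against 24.4 CPM in A0 (27.2-fold), 591 against 27.7 in A10 (21.3-fold) and 478 against 64.8 in BA10 (7.37-fold). The lowest A0 member still had 105 CPM, and 3 members of A10 and 3 of BA10 had 0. Ncl, the nucleolar protein nucleolin, stood at 398, 393 and 189 CPM in members and 19.6, 20 and 31.8 CPM in other cells. Hmgn2, a nucleosome-binding protein, stood at 335, 379 and 340 CPM against 32.5, 35.9 and 64.5. Hells, a chromatin remodeller of replicating cells, stood at 90.5, 123 and 76.4 CPM against 4.26, 5.22 and 8.54.

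The other genes that led in all 3 libraries were Cenpa, the histone of the centromere (log2 2.73 in A0, 2.99 in A10 and 2.74 in BA10), the core histone gene Hist1h2ao (2.37, 2.86 and 3.05), Uchl1, a deubiquitinase of spermatogonia (2.37, 2.77 and 2.50), the testis protease gene Prss50 (3.05, 3.59 and 2.27), and the X-linked genes Rpl36a (3.54, 3.82 and 2.30) and Zrsr2, a splicing factor (2.54, 3.13 and 2.25). All 6 of these genes passed the filter only through the members in A0 and A10, and so did Hells, as Cenpa, Hist1h2ao and Zrsr2 did in BA10 too, so they had to be higher there. Cenpa had a UMI in 19 of 49, 19 of 39 and 52 of 99 members, and in 0.551%, 0.508% and 3.56% of other cells. Scaf11 (log2 3.10 in A0) and Nmt2 (2.27 in BA10) completed the 6 largest differences of single libraries. Scaf11 too passed the filter in A0 only through the members, so it had to be higher there. Ptma, Hmgn2, Rpl36a and Hist1h2ao have near-identical copies in the genome, between which the counting may have divided reads.

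**Figure D1:**
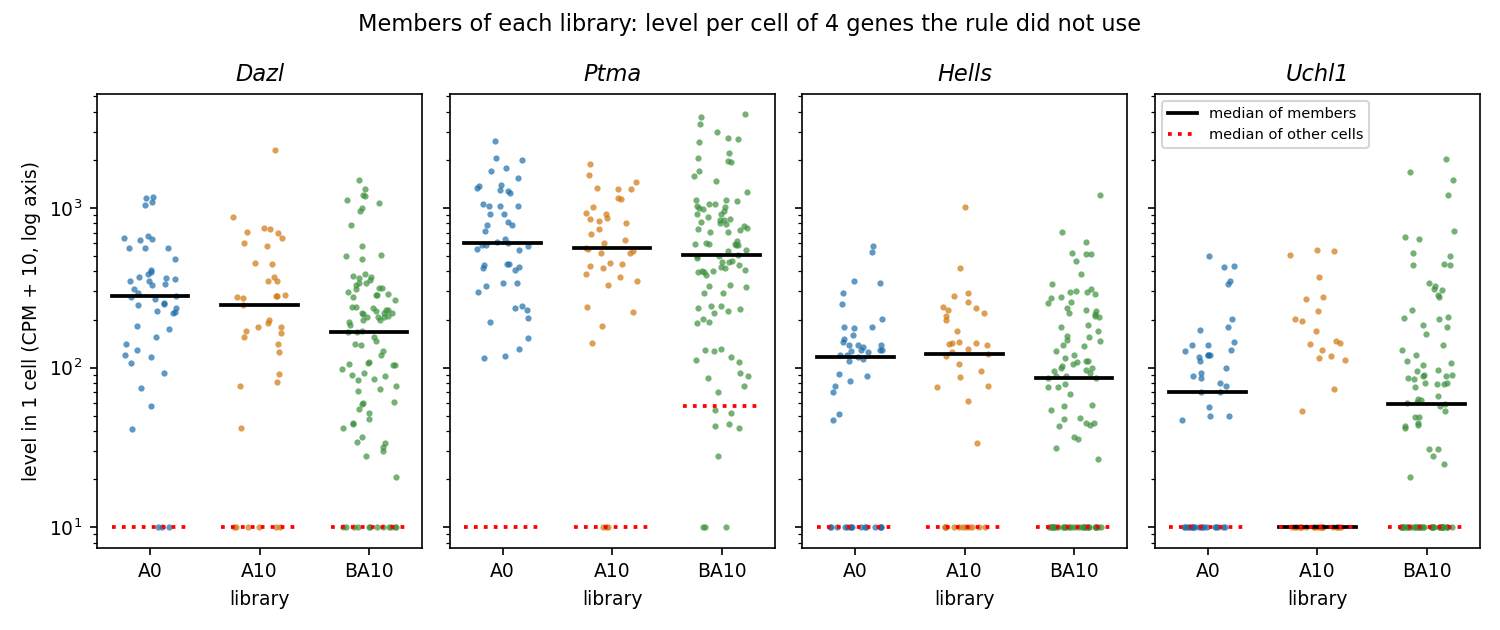
Each point is 1 member, placed by its level of Dazl, Ptma, Hells or Uchl1 in CPM plus 10 on a log axis, for A0 (49 cells), A10 (39) and BA10 (99). Black lines are medians of members and dotted red lines medians of the other cells of the library, which are 0 CPM except for Ptma in BA10, and members without a UMI lie on the lowest row.

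The genes lower in members differed less. In A0 the largest differences were of Gm21190 (20.7 CPM in members and 82.8 in others, log2 -1.60), 1700040L02Rik (-1.51), Lef1 (-1.44), Mif4gd (-1.40), Trim13 (-1.40) and Gm11992 (-1.35). In A10 they were of Msr1 (1 UMI in all members, 1.92 against 28.1 CPM), Gm17019 (1 UMI, 1.92 against 26.8 CPM), Speer4e, Cyp2f2 with 0 UMIs, Dis3l and Muc4. Gm21190, Gm17019 and Speer4e lie in a family of similar copies on chromosome 5 and are uncertain for that reason. In BA10, genes past 2-fold were Hbb-b1 (20.1 against 58.1 CPM, log2 -1.18) and Hba-a1 (22.2 against 58.7, -1.09), both globins of red blood cells, whereas Gm10413, Cln6, Dcdc2a and Zfp128 lay between -0.69 and -0.67. Hbb-b1 was found in 36.4% of members and 34.4% of other cells, and Hba-a1 in 25.3% and 24.1%. Lef1 in A0, Msr1, Gm17019, Cyp2f2 and Muc4 in A10 and Gm10413 in BA10 passed the filter only through the other cells. They therefore had to be lower, and how many other lower genes this applied to was not counted.

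Genes of differentiating spermatogonia had the highest median ratio of the 13 lists with at least 5 counted genes in every library. Of 14 genes of differentiating spermatogonia, 11 were detected widely enough in each library, and 8, 8 and 6 of them were at least 2-fold higher in A0, A10 and BA10, with 0 lower; their median log2 ratio was 1.78, 1.58 and 1.15, beside 0.11, 0.14 and 0.10 over all genes counted. Of these 11 genes 9, 9 and 8 passed the filter only through the members, so neither the count nor the median is evidence of a difference. Over all counted genes, 8.37%, 9.99% and 2.75% were at least 2-fold higher. The summed level of the list was 1048 against 1021 CPM in A0 (log2 0.04), 1253 against 979 in A10 (0.36) and 1398 against 1387 in BA10 (0.01), with most of it from Dmrtb1. Dmrt1, a regulator that holds back meiosis in spermatogonia, stood at 54.3, 23.1 and 31.9 CPM in members against 1.14, 1.10 and 1.36 in others. Sohlh1, a transcription factor of spermatogonial differentiation, stood at 34.9, 36.6 and 31.5 CPM against 2.77, 2.07 and 0.888. Ccnd1, a cyclin of the step into S phase, stood at 38.8, 38.5 and 16.0 CPM against 1.12, 1.17 and 1.68. Kit, the receptor of differentiating spermatogonia, was low and less separated at 10.3, 11.5 and 5.88 CPM against 2.27, 2.31 and 2.15. Dmrtb1, which coordinates the switch from mitosis to meiosis, went the other way at 536, 666 and 941 CPM in members against 914, 869 and 1157 in others.

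Genes of undifferentiated spermatogonia were mostly too rare to count: 7, 5 and 6 of the 17 measured were detected widely enough and 3, 2 and 1 were at least 2-fold higher, 6, 4 and 4 having passed the filter only through the members. The share higher among all counted genes was 8.37%, 9.99% and 2.75%. Uchl1 made the largest part of the difference, at 76.3, 102 and 95.3 CPM in members against 6.73, 6.39 and 8.60. Foxo1 stood at 19.4, 15.4 and 11.8 CPM against 0.666, 0.468 and 1.72, and Zbtb16 at 14.2, 9.62 and 6.72 CPM against 0.733, 0.594 and 0.967. Id4, a marker of stem cells, was not separated (27.1 against 35.1, 44.3 against 37.98 and 55.8 against 75.1 CPM), and Ret had 0 UMIs in the members of all 3 libraries.

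The 12 meiotic entry genes were higher together but less uniformly. Together they held 1338 CPM in members and 806 in others in A0 (log2 0.73, interval from counting error 0.64 to 0.82), 1526 and 808 in A10 (0.92, 0.81 to 1.02) and 1011 and 846 in BA10 (0.26, 0.20 to 0.32). Of 11 genes counted in each library, 5, 5 and 1 were at least 2-fold higher and 0 lower, with a median log2 ratio of 0.68, 0.60 and 0.22. Among those that passed the filter in the other cells, 4 of 10, 3 of 9 and 1 of 10 were higher. Over all counted genes the shares higher were 8.37%, 9.99% and 2.75%. Over all that passed in the other cells, 288 of 7400, 323 of 7065 and 161 of 8240 were higher. Dazl gave the largest part of the difference. Tex15, needed for recombination and transposon silencing, stood at 159, 144 and 24.8 CPM against 40.4, 37.0 and 8.28. Meioc, which prolongs meiotic prophase, stood at 101, 73.1 and 44.5 CPM against 44.5, 44.7 and 35.5, and its partner Ythdc2 at 28.4, 32.7 and 5.88 CPM against 7.88, 7.01 and 6.10. Prdm9, which places recombination hotspots, stood at 20.7, 30.8 and 8.40 CPM against 1.17, 0.992 and 0.821. Sycp3 of the chromosome axis (187, 271 and 278 CPM against 167, 187 and 304) and the cohesins Stag3 (74.97, 77.0 and 90.2 CPM against 88.4, 80.0 and 101) and Rec8 (36.2, 38.5 and 16.4 CPM against 30.4, 24.7 and 13.8) lay near their level in the other cells. Gm4969, which encodes the STRA8 partner MEIOSIN, had a UMI in only 1, 1 and 3 members. With 10 CPM added, the summed ratio in BA10 went from 0.25 to 0.76 with the 50 highest members, and in A10 from 0.91 to 1.503 with the thinned selection.

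The summed level of 30 genes of premeiotic DNA replication was higher in members, at 1071 against 622 CPM in A0, 1241 against 622 in A10 and 1208 against 907 in BA10, but the genes were not higher throughout. Of the 30 genes, 27, 29 and 29 were counted, 20, 27 and 23 of these had a ratio above 0, and 13, 13 and 10 were at least 2-fold higher and 0 lower, with a median log2 ratio of 1.00, 0.82 and 0.51. Of those counted, 13, 16 and 10 passed the filter only through the members, and among the rest 2 of 14, 1 of 13 and 3 of 19 were higher. For all counted genes the shares higher were 8.37%, 9.99% and 2.75%. For all that passed in the other cells they were 288 of 7400, 323 of 7065 and 161 of 8240. Mcm2, a subunit of the replicative helicase, stood at 36.2, 34.6 and 19.3 CPM in members and at 0.167, 0.161 and 0.855 in others. Clspn, of the replication checkpoint, stood at 41.4, 48.1 and 24.3 CPM against 1.38, 1.61 and 2.16. Dnmt1, the maintenance DNA methyltransferase, stood at 49.1, 36.6 and 24.8 CPM against 3.48, 3.63 and 5.004, and Lig1, the replicative DNA ligase, at 40.1, 46.2 and 50.4 CPM against 8.06, 8.24 and 15.8. Other replication genes were about as high in the later cells that surround them: Pcna stood at 65.9, 75.1 and 118 CPM in members and at 66.5, 67.8 and 110 in others, and Mcm7 at 64.6, 71.2 and 70.5 CPM against 65.6, 63.1 and 84.0.

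**Figure D2:**
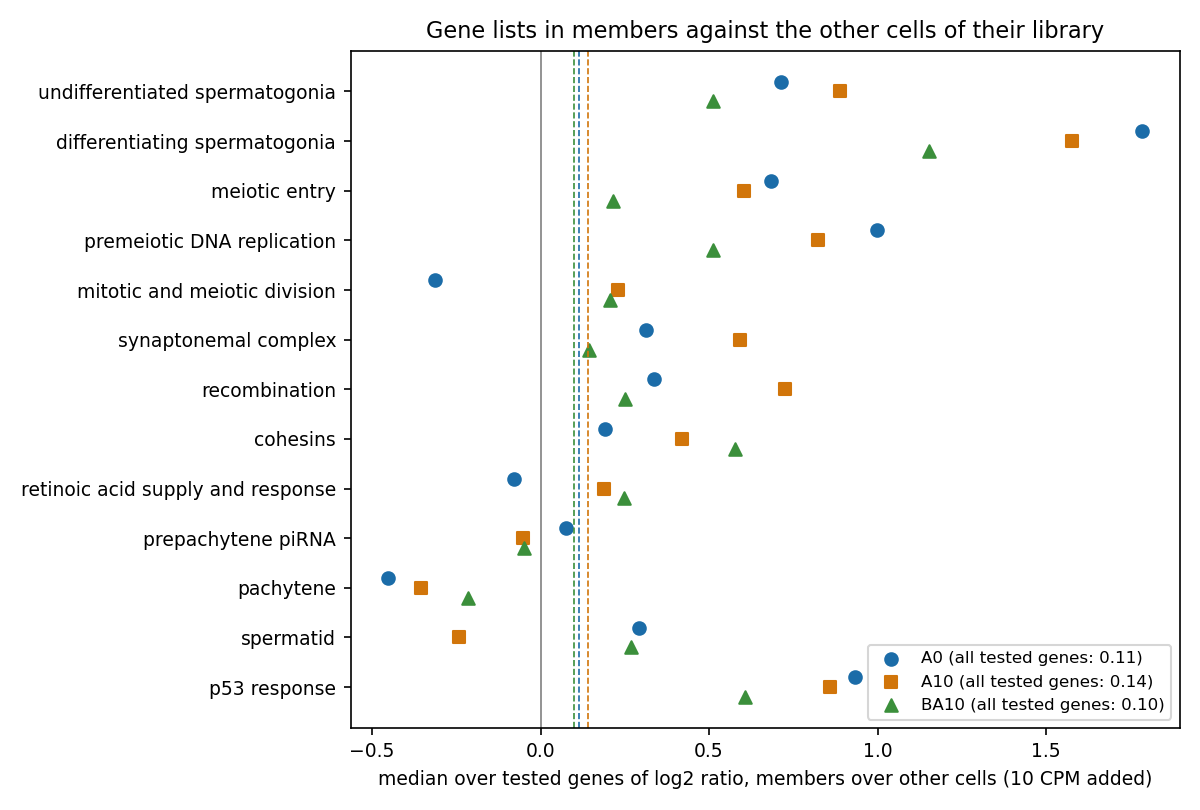
For 13 gene lists, points give the median over counted genes of the log2 ratio of members over the other cells of the same library (10 CPM added), for A0, A10 and BA10. Dashed lines are the medians over all counted genes (0.11, 0.14 and 0.10); genes of differentiating spermatogonia lie farthest to the right, 9, 9 and 8 of 11 having passed the filter only through the members, although their summed levels differ by log2 0.04, 0.36 and 0.01.

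Of 15 division genes, those at least 2-fold higher numbered 3 in A0, 4 in A10 and 2 in BA10, and those lower 2, 0 and 0, beside 8.37%, 9.99% and 2.75% of all counted genes higher. In each library 3 division genes passed the filter only through the members, and among the other 12 those higher numbered 0, 1 and 0. The summed level was 1278 against 1752 CPM in A0, 2026 against 1742 in A10 and 2820 against 2704 in BA10. The mitotic S and G2 cyclin gene Ccna2 stood at 28.4, 32.7 and 22.7 CPM in members against 0.747, 0.747 and 1.41 in others, and the proliferation marker Mki67 at 32.3, 50.03 and 10.1 CPM against 4.07, 3.48 and 2.92. Ccna1, the cyclin of late spermatocytes, stood at 94.4, 194 and 354 CPM in members against 239, 231 and 386 in others, and the kinase gene Aurka at 99.5, 225 and 429 CPM against 233, 238 and 485.

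In the synaptonemal complex 1 of 9, 1 of 8 and 0 of 9 counted genes were at least 2-fold higher, the one being 4930447C04Rik, known as Six6os1 (23.3 against 5.599 CPM in A0 and 40.4 against 5.87 in A10). In both libraries it passed the filter only through the members, and among the genes that passed in the other cells 0 of 6, 0 of 6 and 0 of 9 were higher. Syce2 of the central element was next, at 711 against 415, 618 against 385 and 184 against 89.6 CPM. In recombination 3 of 10, 3 of 11 and 1 of 12 were higher, among them the X-linked Tex11 (20.7, 26.9 and 15.1 CPM against 2.99, 2.74 and 1.30). Spo11, which makes the meiotic breaks, stood at 14.2, 21.2 and 47.0 CPM against 27.6, 26.1 and 58.4. Of the recombination genes counted, 5, 6 and 3 passed the filter only through the members, and among the rest 0 of 5, 0 of 5 and 0 of 9 were higher. Among cohesins 3 of 9, 2 of 8 and 0 of 8 were higher, or 1 of 7, 1 of 6 and 0 of 6 among those that passed in the other cells. The counts of these lists stand beside 8.37%, 9.99% and 2.75% of all counted genes higher. Of all genes that passed in the other cells, 288 of 7400, 323 of 7065 and 161 of 8240 were higher. The summed level of the cohesins was higher in each library (log2 0.37, 0.52 and 0.36). Stag1 stood at 52.99, 65.4 and 30.2 CPM against 14.1, 15.05 and 11.4, and Smc1b, the meiotic SMC1 subunit, at 350.3, 379 and 256 CPM against 309, 299 and 219. In the prepachytene piRNA pathway, which silences transposons, only Mov10l1 was past 2-fold in A0 and A10 (63.3 and 50.03 CPM against 14.9 and 14.7), out of 9 genes counted in each library.

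The retinoic acid pathway itself was sparse. Of 20 genes measured, 8, 9 and 10 were counted and 1 in each library was at least 2-fold higher. That one was Rbp4, a carrier of retinol, at 37.5, 23.1 and 22.7 CPM in members against 0.766, 0.859 and 1.82 in others. Rbp4 passed the filter only through the members and so had to be higher, and among the genes that passed in the other cells 0 of 6, 0 of 5 and 0 of 7 were higher. Among all counted genes, 8.37%, 9.99% and 2.75% were higher. Aldh1a2, which makes retinoic acid in germ cells, stood at 31.0, 65.4 and 89.0 CPM against 65.4, 63.6 and 107. Its relative Aldh1a1, of somatic cells, stood at 1.29 and 1.92 CPM in the members of A0 and A10 and at 146 CPM in those of BA10, where the other cells had 95.4 and the members without the 6 cells richest in Leydig RNA had 27.8. The degrading enzymes Cyp26a1 and Cyp26b1 each had a UMI in at most 3, 1 and 6 members, and the receptor gene Rarg in 1, 1 and 2.

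Other genes of the Rhox cluster, the X-linked array that holds Rhox13, were sparse. Summed over the 11 measured genes, members had 56.9, 46.2 and 73.5 CPM (44, 24 and 175 UMIs) and others 22.0, 21.01 and 29.3. Only 3, 2 and 5 genes were counted, 2, 1 and 3 of them through the members alone, and 2 of 3, 0 of 2 and 1 of 5 were at least 2-fold higher, of which 0 had passed the filter in the other cells. Rhox2a stood at 12.9, 7.70 and 14.3 CPM against 0.160, 0.0698 and 0.349, and Rhox1 at 10.3, 1.92 and 9.23 CPM against 0.0666, 0.0559 and 0.259, the A10 value being 1 UMI. These genes are similar in sequence and reads may be shared between copies. In the p53 response 3 of 7, 3 of 6 and 2 of 8 counted genes were at least 2-fold higher, beside 8.37%, 9.99% and 2.75% of all counted genes. Of those counted, 6, 5 and 3 passed the filter only through the members, and among the rest 0 of 1, 0 of 1 and 1 of 5 were higher. Bax, a gene of apoptosis, stood at 76.3, 55.8 and 62.5 CPM against 3.59, 3.20 and 13.2, whereas Cdkn1a stood at 9.05, 9.62 and 7.98 CPM against 6.11, 5.93 and 6.53.

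The share of UMIs from X-linked genes other than Rhox13 was higher in members. The X chromosome is silenced in pachytene spermatocytes and active before that stage. Over 755 X-linked genes without Rhox13, members drew 1.27%, 1.10% and 0.659% of their UMIs from the X, and the other cells 0.894%, 0.877% and 0.332%. The median member had 1.40% in A0, 1.41% in A10 and 0.704% in BA10, against 0.991%, 0.982% and 0.231% for the median other cell. Above that median lay 42 of 49, 26 of 39 and 85 of 99 members, but above the 95th percentile of the other cells only 4, 4 and 21. Spermatid RNA moved with the share in A0: in members with 0, 1 to 4 and 5 or more member neighbours, the X-linked share was 0.742%, 1.27% and 1.51% and the spermatid list 26067, 53183 and 72588 CPM. In A10 the shares were 0.548%, 1.55% and 1.10% and the list 35643, 55052 and 35895 CPM, and in BA10 0.719%, 0.633% and 0.630% and 4175, 605 and 282 CPM. The 6 BA10 members richest in Leydig RNA had X-linked shares of 1.71% to 2.82%. The part of spermatid or Leydig RNA in the X-linked share was not tested. Of X-linked genes counted, 61 of 287 (21.3%), 70 of 264 (26.5%) and 42 of 260 (16.2%) were at least 2-fold higher, beside 8.01%, 9.52% and 2.38% of autosomal genes. Most of these calls came with the filter, which 126, 118 and 121 X-linked genes passed only through the members. Among genes that passed in the other cells, 11 of 161 X-linked genes were higher in A0 (6.83%, beside 3.87% of autosomal genes), 9 of 146 in A10 (6.16% beside 4.60%) and 19 of 139 in BA10 (13.7% beside 1.73%). The X held 29 of the 210 genes higher in all 3 libraries (13.8%), beside 201 of the 7888 genes counted in all 3 (2.55%). It held 4 of the 66 that had also passed the filter in the other cells of all 3, beside 98 of all 6518 genes that passed there.

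Ribosomal protein genes were also grouped by place. The 4 on the X (Rpl39, Rpl10, Rps4x and Rpl36a) summed to 388, 410 and 495 CPM in members and to 22.1, 22.9 and 154 in others, with 3, 4 and 3 of them past 2-fold. In A0 and A10 all of these but Rpl10 passed the filter only through the members. Of autosomal ribosomal protein genes 6 of 71, 14 of 71 and 0 of 72 were past 2-fold, beside 8.37%, 9.99% and 2.75% of all counted genes higher. Rpl10 stood at 153, 121 and 198 CPM against 14.6, 14.3 and 68.7, and Rpl39 at 95.6, 106 and 97.4 CPM against 2.86, 3.84 and 28.8.

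**Figure D3:**
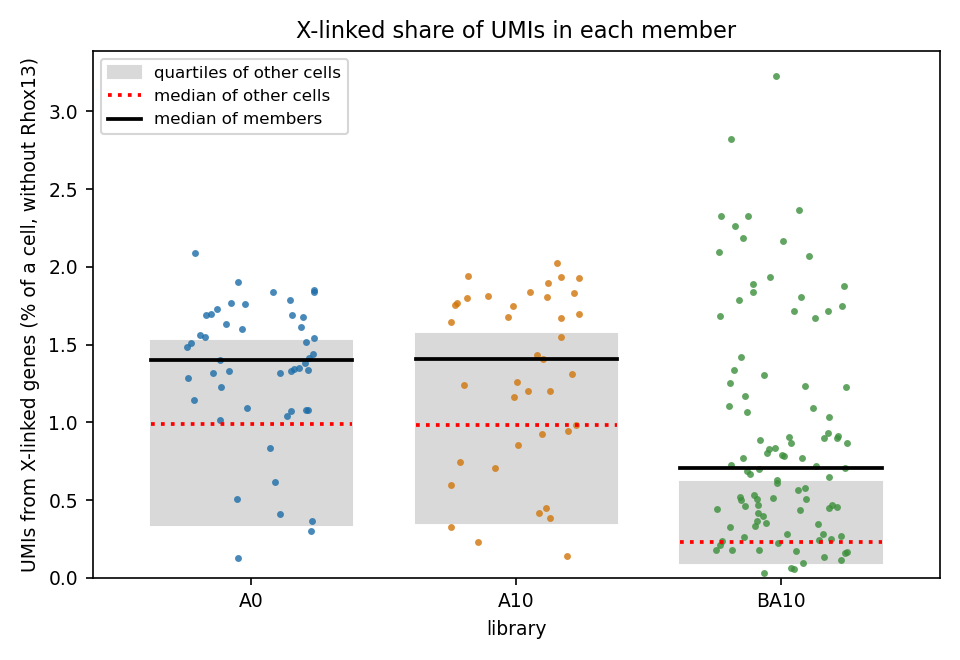
Each point is the percent of 1 member's UMIs that came from X-linked genes other than Rhox13, for A0, A10 and BA10. Grey boxes span the quartiles of the other cells, dotted red lines their medians (0.991, 0.982 and 0.231%) and black lines the medians of members (1.40, 1.41 and 0.704%), which lie above them in each library.

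The label of these cells was only partly borne out, because RNA of later stages was also abundant in them. The 14 pachytene genes summed to 8721, 10130 and 12453 CPM in members, against 12597, 12555 and 14882 in others. Ldhc, the lactate dehydrogenase of spermatocytes, was found in every member, with medians per cell of 4926, 5044 and 6612 CPM against 7895, 7845 and 8785. The 10 spermatid genes summed to 56369, 42344 and 1562 CPM in members and to 42426, 49120 and 1368 in others. Per cell they were higher in the median member of every library, at 57217 against 11620 CPM in A0, 29049 against 14848 in A10 and 268 against 218 in BA10. Prm1, a protamine of elongating spermatids, was found in 49 of 49, 39 of 39 and 60 of 99 members, with a median per cell of 14738 CPM in A0, 5192 in A10 and 39.9 in BA10, against 2559, 3825 and 21.7 CPM in the median other cell. It was also found in 100%, 100% and 54.4% of the other cells. Scrublet, a caller of doublets, marked 9 of 49 members of A0 (18.4%, 8.76 to 32.0) and 7.85% of other cells, 3 of 39 in A10 (7.69% in both), and 1 of 99 in BA10 (1.01% against 1.25%). The part of free RNA, doublets and transcription in the cells themselves in these levels was not tested. The members are therefore best described only as the cells that met the selecting condition on Stra8, Rhox13 and Crabp1. All 3 genes were found together in 12, 1 and 28 of them. Pooled Dazl and Ptma were higher in members than in the other cells, but a Dazl UMI was found in 46 of 49, 33 of 39 and 87 of 99 members, not in all.

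Markers of somatic cells differed by library. Of Leydig genes, summed over 6, the members had 5.17 CPM in A0, 1.92 in A10 and 629 in BA10, and the other cells 7.45, 9.57 and 370. The BA10 value rests on 6 of 99 members with at least 1% of their UMIs in the list, which held 82.7% of the Leydig UMIs. Without them the members had 112 CPM, and the median member had 109 CPM against 119 in the median other cell. Insl3, a Leydig hormone, had 0 UMIs in A0 and A10 members and 177 CPM in BA10 members, present in 59 of 99 cells, as against 61.2% of the other BA10 cells. In BA10, cells with at least 1% of their UMIs in the Leydig list were members at 7.69% (6 of 78, 2.88 to 16.0), beside 2.62% of the whole library. Of 8 Sertoli genes, members had 86.6, 135 and 333 CPM and others 44.6, 46.0 and 242, mostly from Aard and Clu, while Sox9 had a UMI in 1, 1 and 5 members and Amh in 0, 1 and 3. Macrophage genes summed to 0, 0 and 18.9 CPM in members, endothelial genes to 5.17, 1.92 and 0, and peritubular myoid genes to 5.17, 9.62 and 19.3.

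**Figure D4:**
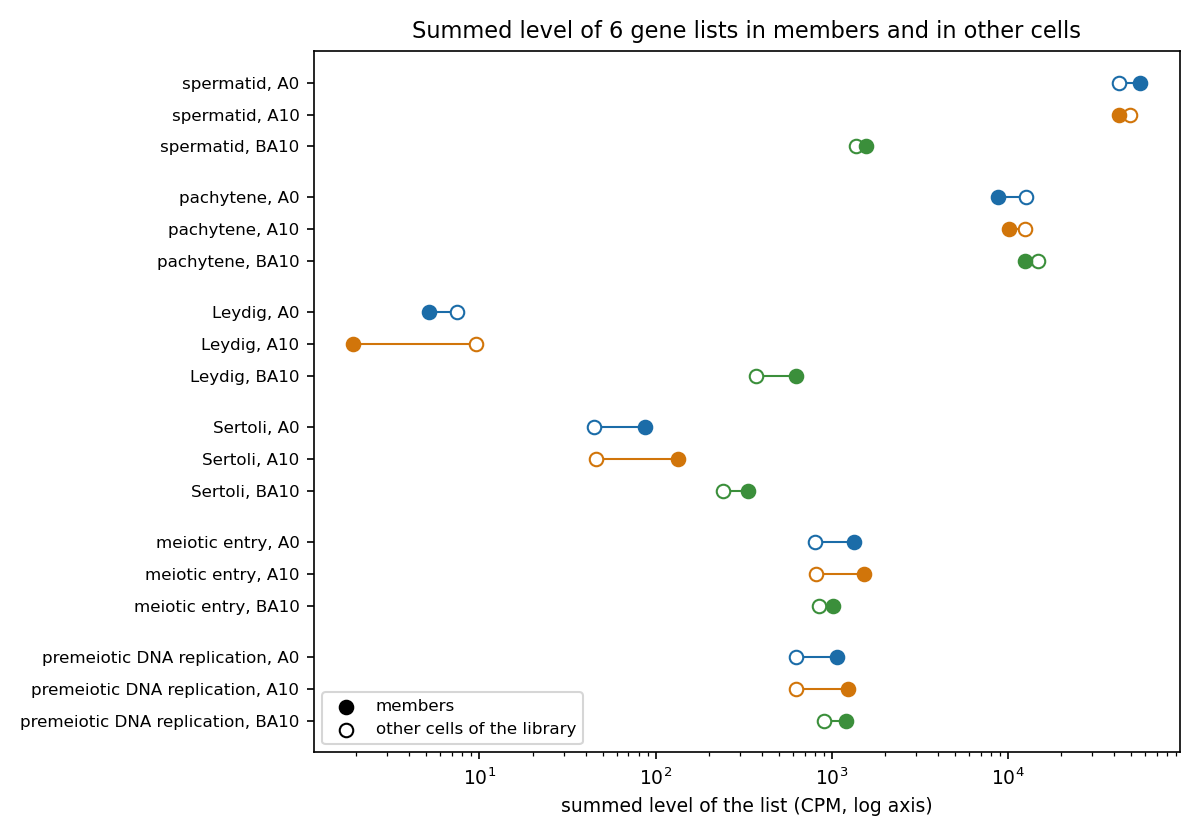
Filled circles are members and open circles the other cells of the library, placed by the summed level of each of 6 gene lists in CPM on a log axis. Meiotic entry and replication genes lie to the right of the other cells in each library and pachytene genes to the left. Leydig genes reach 629 CPM in BA10 members against 370 in the other cells, and 5.17 against 7.45 in A0.

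The members were not all alike, and in BA10 several genes were higher in members with more selecting UMIs. In BA10, Dazl stood at 23.6 CPM in cells with none of the 3 genes, 34.5 with 1 gene, 70.3 in members of 2 UMIs, 75.7 of 3 UMIs and 220 of 4 or more. In A0 the same steps were 20.4, 47.4, 201, 188 and 330.4 CPM, and in A10 19.4, 55.0, 208, 386 and 265. Dazl was thus lowest in members of 2 UMIs in A10 and BA10 but not in A0. Ptma in BA10 went from 60.5 to 96.0, 185, 323 and 729 CPM and Hells from 7.80 to 13.8, 35.9, 46.1 and 115. Uchl1 in BA10 stood at 27.3, 36.9 and 164 CPM in members of 2, 3 and 4 or more UMIs. Ldhc went the other way in BA10, from 8908 to 8787, 7784, 7219 and 6941 CPM. The order differed in the other libraries: over members of 2, 3 and 4 or more UMIs, Ldhc stood at 5444, 6018 and 6415 CPM in A10 and at 5351, 5874 and 4591 in A0, and Uchl1 at 92.0, 171 and 77.5 CPM in A10.

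**Figure D5:**
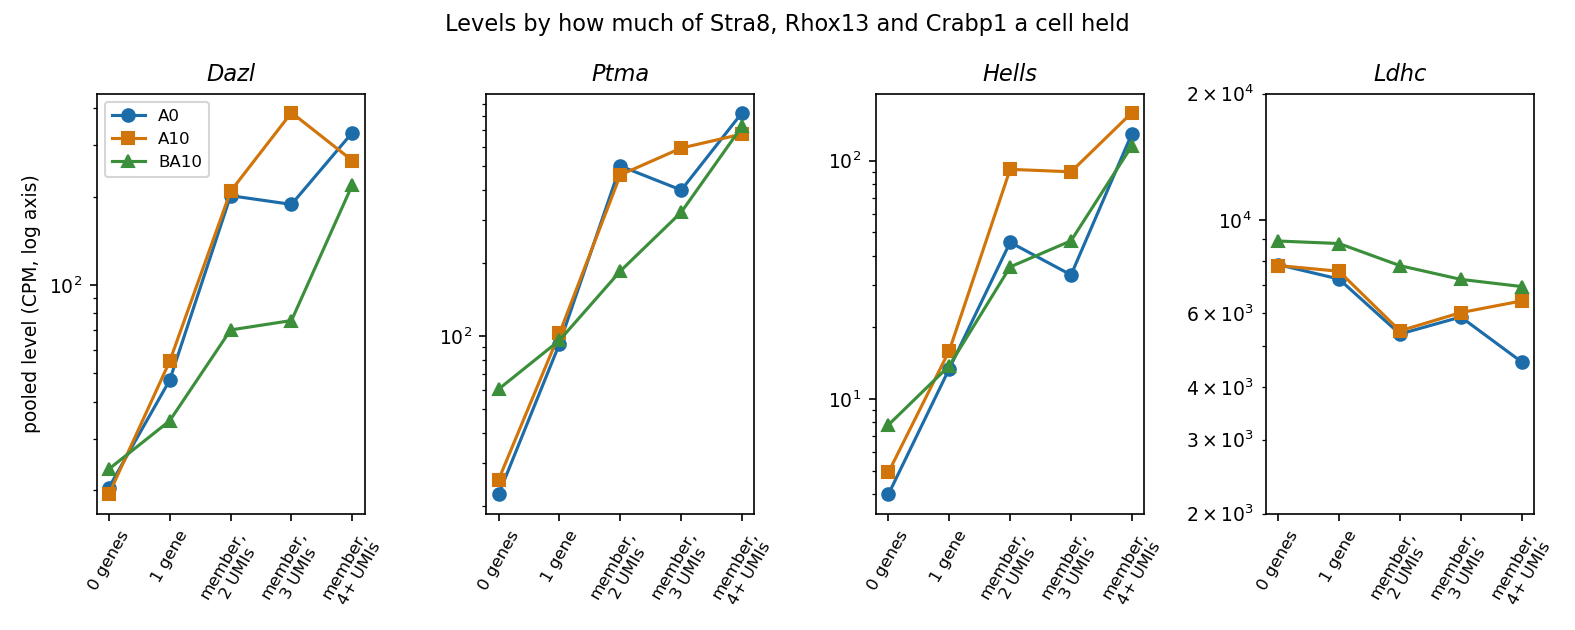
Pooled CPM on a log axis of Dazl, Ptma, Hells and Ldhc in cells with 0 or 1 of Stra8, Rhox13 and Crabp1 and in members with 2, 3 or 4 and more UMIs of them, for A0, A10 and BA10. Dazl, Ptma and Hells are higher in each class of members than in cells with 0 or 1 gene, and in BA10 they are highest with 4 or more UMIs (220, 729 and 115 CPM), while Ldhc is lower.

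Members were also grouped by how many of their 15 nearest cells were members, which in A10 gave another order than selecting UMIs for Uchl1. Members of 2 UMIs still had a mean of 3.27 member neighbours in A0, 2.92 in A10 and 3.15 in BA10, against 6.45, 4.12 and 7.70 with 4 or more. Members with at least 5 member neighbours had Dazl at 386, 368 and 223 CPM in A0, A10 and BA10, Hells at 150.2, 167 and 120 CPM, Uchl1 at 126, 191 and 165 CPM and Cenpa at 113, 128 and 121 CPM. Members with 0 member neighbours had Dazl at 96.6, 108 and 49.6 CPM, Hells at 5.69, 86.3 and 24.1, Uchl1 at 11.4, 14.4 and 20.1 and Cenpa at 11.4, 7.19 and 8.04. Their median selecting UMIs were 2, 2.5 and 2, against 4, 3 and 5 in the well connected members, and their median depth was higher (19766, 13670 and 21241 UMIs against 12173, 12492 and 14317). The spermatid list was at 72588, 35895 and 282 CPM in well connected members and at 26067, 35643 and 4175 CPM in those with 0 member neighbours, the last being 1498 CPM without 1 cell rich in spermatid RNA. The neighbour numbers come from these genes, so this describes the split and does not test it.

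The next question was whether AOS without busulfan went with a change in these cells. Between members of A10 and A0, 128 of 9517 genes were at least 2-fold higher (1.34%) and 90 lower (0.946%), with 39 and 49 cells behind them. Genes that passed the 10% filter through a single pool had to be higher in it, and their number was not counted. Meiotic entry genes summed to 1526 and 1338 CPM (log2 0.19, 0.05 to 0.32), and 1 of 11 was 2-fold higher. Replication genes differed by 0.21 (0.06 to 0.36), with 0 of 29 past 2-fold. Division genes differed more, at 2026 against 1278 CPM (0.66, 0.54 to 0.79), while the other cells had 1742 and 1752 CPM. RNA of later stages moved with these lists. Spermatid genes summed to 42344 CPM in A10 members and 56369 in A0 members (-0.41, -0.44 to -0.39), with 0 of 10 above 0, whereas the other cells had 49120 and 42426. Pachytene genes summed to 10130 and 8721 CPM (0.22, 0.16 to 0.27), and their other cells to 12555 and 12597. The part of this shift in the other lists was not tested. These intervals cover counting error only.

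The genes highest in A10 members over A0 rested on few UMIs. Speer1 stood at 69.3 against 12.9 CPM (36 and 10 UMIs), and the other cells of the libraries had a like ratio (log2 1.53 against 1.79 in members); it is one of a family of similar copies. Nkx2-4 (19 and 3 UMIs, log2 1.75), Oxnad1 (1.5), Iqsec1 (1.49), Gng10 (1.49) and Trim13 (1.48) had ratios between -0.02 and 0.13 in the other cells. Among the lower genes, Msr1 stood at 1.92 against 40.1 CPM (1 and 31 UMIs), Gm6637 at 0 against 25.9 (0 and 20 UMIs) and Galm at 21.2 against 78.8. 4930488N24Rik, Cpeb3 and 4931431F19Rik lay between -1.42 and -1.39. Nkx2-4 and Iqsec1 passed the filter only through the A10 members, so they had to be higher. Msr1, Gm6637 and 4930488N24Rik passed it only through the A0 members, so they had to be lower. With members of at least 4 UMIs only, 1416 genes were past 2-fold instead of 218, over 17 and 29 cells.

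The last question was how members after busulfan and AOS compared with those without busulfan. Over A0, 966 of 10337 genes were at least 2-fold higher in BA10 members (9.35%) and 1288 lower (12.5%). Over A10, 368 of 10142 were higher (3.63%) and 933 lower (9.2%). The BA10 members enter both comparisons, so they are not independent. Here too, genes that passed the filter through a single pool had to be higher in it, and their number was not counted. The largest differences were of genes that also differed between the libraries' other cells. Lcn2, a secreted iron-binding protein, stood at 430.3 CPM in BA10 members, with 2 UMIs in all A0 members and 1 in all A10 members, and at log2 4.32 over A0 in the other cells, beside 5.13 in members. Gstm1, a glutathione transferase, stood at 545 against 14.2 and 11.5 CPM, and the fatty acid carrier gene Fabp3 at 359 against 6.46 and 1.92. The Leydig genes Cyp17a1 (237 CPM against 2.59 in A0, and 0 UMIs in A10) and Insl3 (177 CPM) and the reductase gene Akr1cl (167 CPM) followed. Lcn2, Cyp17a1, Insl3 and Akr1cl passed the filter only through the BA10 members, so they had to be higher. Over A10 the same applied to Gstm1 and Fabp3. Insl3 and Akr1cl had 0 UMIs in A0 members. Set against a floor of 3 UMIs in the pooled A0 members, they were 45.7-fold and 43.0-fold higher. The exact lower bounds of their ratios were log2 5.21 and 5.12. The 6 Leydig-rich members carried most of these UMIs. Without them Insl3 was at 43.4 CPM (11.2-fold over that floor), Akr1cl at 29.9 (7.72-fold), Cyp17a1 at 35.6, Lcn2 at 70.7, Gstm1 at 146 and Fabp3 at 81.6. In that setting 882 genes were higher and 1283 lower than in A0.

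The lowest genes were of spermatids. Prm2 stood at 265 CPM in BA10 members against 20959 in A0 and 14810 in A10, Prm1 at 380 against 17281 and 13752 and Tnp2 at 254 against 9188 and 6914. One BA10 member held 81.1% of the Prm1 UMIs, and without it Prm1 was at 72.2, Prm2 at 51.5 and Tnp2 at 52.8 CPM. For Prm2 the log2 ratio over A0 was -6.25 in members and -5.56 in the other cells. Tppp2, Tssk6, 1700012A03Rik and 1700015G11Rik were the other genes with the lowest ratios. All of these but Tssk6 were detected in fewer than 10% of BA10 members, so they had to be lower. All 10 spermatid genes were lower over both A0 and A10, 10 and 9 of them at least 2-fold, beside 12.5% and 9.2% of all counted genes. All 5 Leydig genes counted were at least 2-fold higher over both. These 5 passed the filter only through the BA10 members, so they had to be higher.

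Meiotic entry genes summed to 1011 CPM in BA10 members, against 1338 in A0 (log2 -0.40, -0.51 to -0.30) and 1526 in A10 (-0.59, -0.71 to -0.48), and 3 of 11 were at least 2-fold lower in each comparison with 0 higher. Of all counted genes, 12.5% were lower over A0 and 9.2% over A10. Pooled sums weigh deep cells more, and members held up to 111909 UMIs in BA10 but at most 41185 in A0 and 42415 in A10. Per cell, the median member had 1076 CPM of these entry genes in BA10, 1162 in A0 and 1268 in A10. Dazl stood at 143 against 271 and 273 CPM, Tex15 at 24.8 against 159 and 144, and Ythdc2 at 5.88 against 28.4 and 32.7. Tex15 was also low in the other BA10 cells (8.28 CPM, against 40.4 in A0 and 37.0 in A10). Others were higher than in A0, such as Sycp3 (278 against 187 CPM) and Hormad1 (67.2 against 40.1), as they were in the other cells (304 against 167 CPM for Sycp3 and 77.6 against 58.2 for Hormad1). With members of at least 4 UMIs in both libraries the summed ratio over A0 was -0.32, and with only the 50 highest BA10 members, set against all 49 of A0, it was 0.10. Replication genes were at 1208 CPM against 1071 and 1241, and division genes at 2820 against 1278 and 2026, with 8 of 15 at least 2-fold higher over A0 and 0 over A10. The share of all counted genes higher was 9.35% over A0 and 3.63% over A10. In the other cells division genes also were higher in BA10, at 2704 CPM against 1752 and 1742. The X-linked share was lower in BA10 members (0.659%) than in those of A0 (1.27%) and A10 (1.10%), as it was in the other cells. The 50 highest BA10 members had 0.983%.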

How the data were processed

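Testis tubular cells were profiled with 10x Genomics 3' chemistry, 1 library for each of A0, A10, B0 and BA10. Per the labels and the study's methods, the authors aligned and counted with Cell Ranger 2.2.0, set the force-cells option to 5000, kept cells with at least 200 genes and genes in at least 3 cells, and deposited 1 table of 18419 genes as the natural log of 1 plus each gene's share of a cell's UMIs times 10000. The deposited cells are not explained by these settings: A0 and A10 hold 8941 and 9682 cells, and the lowest cell has 912 to 1773 genes. The table held 0 columns of other samples. UMIs were recovered from the steps of these values, whole within 0.001. Library totals were 150812974 UMIs in A0, 143714595 in A10, 91304225 in BA10 and 25323535 in B0, and median cells held 12685, 10948, 17989 and 4214 UMIs.

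Samples were grouped by their labels. The members and the 19 gene lists were chosen with earlier results of these data known. UMIs were summed over members and over the other cells of a library and compared as the log2 ratio of CPM with 10 CPM added. Each list was summed without the 3 selecting genes. With 1 library per group no test was run: intervals are exact, at 95%, for counting error only. Named genes were the selecting genes, the most abundant and most differing genes of each list, the 6 largest differences in each direction of each comparison, and up to 10 genes at least 2-fold higher in all 3 libraries. A few further list genes were named after their values were seen. X-linked genes were taken from GENCODE M21, which placed 17546 genes. Doublets were called with Scrublet but kept, and leaving them out was an alternative. The other alternatives were the number of members, the number of selecting genes or UMIs, thinning, a common UMI limit, pooling, the added CPM, the detection filter and the neighbour settings. The 755 X-linked genes exclude Rhox13, and the cells grouped by their spermatid or Leydig share were cut after seeing the data. Python 3.11.15 was used with numpy 2.4.6, scipy 1.17.1, pandas 2.3.3, scanpy 1.11.5 and matplotlib 3.10.9, and the statistics were tested on simulated data. B0 lies outside the selection, so its values stand only in the closing section. BA10 members were also compared without those rich in Leydig or spermatid RNA, and lists, X-linked and autosomal genes over genes detected in at least 10% of the other cells, both chosen after seeing the data.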

Additional observations from a re-analysis of the deposited data

Results flagged for a closer look

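The summed division genes differed in direction between libraries when members were set against the other cells: the log2 ratio was 0.22 in A10 and 0.06 in BA10 but -0.45 in A0. The summed spermatid genes did so too, at 0.41 in A0 and 0.19 in BA10 but -0.21 in A10. This holds for the pooled sums only: the median member had more spermatid RNA than the median other cell in each library, at 57217 against 11620 CPM in A0, 29049 against 14848 in A10 and 268 against 218 in BA10. For the division genes these medians were 962 against 1278, 1299 against 1288 and 3003 against 2901 CPM. Neither difference was tested, since each group was 1 library.

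In B0, which no comparison used, 3.2% of cells (149 of 4659, exact binomial interval 2.71 to 3.74) held at least 2 of the 3 genes. The share was 0.548% in A0, 0.403% in A10 and 2.62% in BA10, whose interval (2.13 to 3.18) overlaps that of B0, and the median B0 cell held 4214 UMIs. After thinning to 5000 UMIs it was 2.74% in B0 and 0.768% in BA10. The B0 value covers only the 1424 of 4659 cells with at least 5000 UMIs, and the BA10 value all 3778 cells.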

How the results depend on the processing

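No paired analysis was possible because each group was 1 library. Of 68 alternative values for the summed meiotic entry level and the neighbour share, 35 stayed within the counting interval, 32 moved out of it and 1 changed sign. Of 51 for the number of genes past 2-fold, 32 stayed within 1.5 times the reported number, a range that holds 1296 beside 868, and 19 did not. In all, 11 of the 67 that stayed could not have moved, since the 50 highest cells are all the members in A0 and A10 and the common UMI limit of 9013 leaves out 0 cells in BA10. The cause of the moves was not tested. The summed entry level (log2) of members over other cells was 0.72 in A0, 0.91 in A10 and 0.25 in BA10. It became 0.92, 1.503 and 0.59 with the thinned selection, 0.85, 1.12 and 0.46 with at least 4 selecting UMIs (chosen after seeing the data), and 0.87, 1.10 and 0.46 as a mean over cells. It became 0.61 in A0 and 0.46 in BA10 with all 3 genes detected, 0.76 in BA10 with the 50 highest cells and 0.75 in A10 with the common UMI limit. For A10 over A0 it moved from 0.19 to 0.58 when thinned. For BA10 over A0 it moved from -0.40 to 0.10 with the 50 highest cells, a change of sign, -0.084 with all 3 genes, -0.27 when thinned and -0.25 as a mean. For BA10 over A10 it moved from -0.59 to -0.089, -0.85, -0.46 and -0.44 with the 50 highest cells, thinned, with the common limit and as a mean. Genes past 2-fold numbered 868, 910 and 267 in A0, A10 and BA10. With 1 CPM added they numbered 2269, 2211 and 1285, and with at least 4 UMIs 1367, 1451 and 667. Thinned they numbered 3486 in A10 and 1160 in BA10, and in BA10 also 1494 with the 50 highest cells, 787 with all 3 genes and 689 as a mean. For A10 over A0 the 218 became 2690 thinned, 415 with the common limit, 1416 with at least 4 UMIs and 1452 with 1 CPM. For BA10 over A0 the 2254 became 4060 with 1 CPM. For BA10 over A10 the 1301 became 1962 with the 50 highest cells, 4726 thinned and 2947 with 1 CPM. Neighbour shares of 34.7%, 26.8% and 39.5% became 16.8%, 4.17% and 23.7% thinned, 27.4%, 12.2% and 34.1% with at least 4 UMIs, 31.0%, 22.1% and 35.5% with 30 neighbours, and 5.0% in A0 and 25.5% in BA10 with all 3 genes. That setting gave no value in A10, where 1 cell met it and at least 5 were required. The changed selections also left fewer members that could be neighbours than the reported 49, 39 and 99. Members numbered 23, 8 and 29 thinned, and 29, 17 and 53 with at least 4 UMIs. With all 3 genes they numbered 12 in A0 and 28 in BA10.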

Other observations

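All 149 cells of B0 with at least 2 of the 3 genes were pooled. They had Stra8 at 687 CPM against 11.01 in the other cells, Dazl at 697 against 62.4, Hells at 710 against 34.0, Ptma at 3205 against 621 and Uchl1 at 522 against 32.4. Insl3 was at 640 CPM in them and 6809 in the other B0 cells, and the X-linked share was 2.09% against 2.12%. Of 1424 B0 cells with at least 5000 UMIs, 39 met the condition after thinning (2.74%, exact binomial interval 1.95 to 3.73).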
